A study of Homo sapiens with 12 samples.

Results

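The genes described here encode the proteasome, its activators and the factors that assemble it. They were taken by symbol: every protein-coding gene whose symbol starts with PSMA, PSMB, PSMC, PSMD, PSME, PSMF or PSMG, together with POMP and ADRM1. This gave 51 genes of the 63677 listed, and 50 of them were among the 18674 genes that passed the filter on low counts. PSMB11, the thymus-specific subunit, did not pass and had at most 1 read in a library. PSMC3IP and PSME3IP1 carry matching symbols but are not proteasome subunits, so 49 of the 51 are proteasome genes proper, and PSMB3 was not analysed here. RNA was sequenced from 3 mantle cell lymphoma (MCL) cell lines, JEKO1, JVM2 and MAVER1, after 48 h without drug (control), with ironomycin, with ibrutinib or with both drugs. Ironomycin, a compound that sequesters iron in lysosomes, was given at 50 nM to JEKO1 and at 250 nM to JVM2 and MAVER1. Ibrutinib, an inhibitor of Bruton's tyrosine kinase, was given at 0.5 μM to JEKO1, 1.5 μM to JVM2 and 6.25 μM to MAVER1. Each line gave 1 library per treatment, so the cell line is the replicate (n = 3), and dose and line cannot be told apart.

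The 26S proteasome degrades ubiquitin-tagged proteins. Its 20S core is a barrel of alpha and beta rings whose beta subunits PSMB5, PSMB6 and PSMB7 cut the chain, and a 19S cap of ATPases and non-ATPase subunits binds, unfolds and feeds in the substrate. In lymphoid cells and under interferon, PSMB8, PSMB9 and PSMB10 replace the catalytic subunits to form the immunoproteasome, which shapes the peptides shown on MHC class I. When proteasome activity is short, the transcription factor NFE2L1 is released from the endoplasmic reticulum and binds antioxidant response elements of proteasome genes.

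The 12 libraries held 35448523 to 38630809 counted reads. The B-cell markers MS4A1, CD79A, CD79B and PAX5 were expressed in every library, with a summed level of 1082 to 1955 CPM (read counts scaled to a common library size, with a TMM factor per library that corrects for composition). Summed levels were at most 3.20 CPM for the T-cell markers, 5.07 for the myeloid markers and 14.2 for the epithelial markers, the last almost wholly EPCAM in MAVER1. EPCAM rose with both drugs by 0.97 ± 0.20 on the log2 scale (edgeR, adjusted p = 0.00708), and LYZ (-1.46 ± 0.34, adjusted p = 0.0116) and CD3E (-1.97 ± 0.33, adjusted p = 0.00385) fell, both at most 2.40 CPM in any library. Their part in the results below was not tested. In bulk RNA, fewer cells of a type and less RNA per cell cannot be told apart.

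Promoter stretches are shown for the motifs of the factors known to act on proteasome and immunoproteasome genes. In the RefSeq promoter windows (250 bases before to 50 after a start, build GRCh38.p14), 45 of the 51 members had at least 1 window. The antioxidant response element core TGACNNNGC, on either strand, was found in 15 of the 45 (33.3%) and in 16.1% of all 27305 genes with a window. The stretches below hold it in capitals in a 20S alpha subunit, a 19S ATPase, a pair of 19S non-ATPase subunits and PSME4, an activator whose level is described further on.
PSMA4, chr15:78540640-78540688, + strand: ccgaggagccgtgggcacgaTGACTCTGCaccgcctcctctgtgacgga
PSMC5, chr17:63827644-63827692, + strand: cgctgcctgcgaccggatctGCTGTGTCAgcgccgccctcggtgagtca
PSMD3, chr17:39980750-39980798, + strand: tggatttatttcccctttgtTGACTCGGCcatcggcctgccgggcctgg
PSMD12, chr17:67366714-67366762, - strand: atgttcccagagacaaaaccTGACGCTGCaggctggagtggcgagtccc
PSME4, chr2:53970999-53971047, - strand: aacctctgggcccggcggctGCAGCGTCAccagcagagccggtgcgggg

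The interferon-stimulated response element core, GAAA followed after any pair of bases by a further GAAA, on either strand, was found in 7 of the 45 members (15.6%) and in 4.38% of all genes. Those 7 were PSMA4, PSMB4, PSMB8, PSMB10, PSME1, PSME2 and PSMG4, and it was not found in the PSMB9 windows. The 4 interferon-inducible members among them are shown with the core in capitals.
PSMB8, chr6:32844032-32844061, - strand: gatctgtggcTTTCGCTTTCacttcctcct
PSMB10, chr16:67936852-67936881, - strand: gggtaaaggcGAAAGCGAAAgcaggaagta
PSME1, chr14:24136189-24136218, + strand: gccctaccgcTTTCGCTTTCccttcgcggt
PSME2, chr14:24146619-24146648, - strand: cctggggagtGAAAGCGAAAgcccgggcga

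Of the other motifs searched, the ETS core CCGGAAG was found in 18 of the 45 members (40.0%) and in 12.2% of genes. The CCAAT box was found in 22 members (48.9%) and 39.7% of genes, the interferon-gamma activated site core TTCNNNGAA in 8 members (17.8%) and 9.38% of genes, and the E box CACGTG in 3 members (6.67%) and 8.77% of genes. A match gives letters in a window and not a bound site. These shares were not tested. Of the members with a window, 33 were called lower with both drugs (described below) and 11 were tested and not called. In that order the antioxidant core was found in 12 and 3 and the interferon-stimulated core in 6 and 1. The ETS core was found in 11 and 7, the CCAAT box in 18 and 3, the interferon-gamma core in 6 and 2 and the E box in 2 and 1. These counts were not tested either.

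With both drugs, most proteasome genes were lower. Of the 50 tested members, 38 fell and 0 rose (edgeR quasi-likelihood test with the cell line as a block, adjusted p under 0.05 over all 18674 genes), whereas 14.0% of all tested genes fell and 14.2% rose, 28.2% in all. The median log2 fold change was -0.41 over the members and 0.05 over all tested genes, and 49 of the 50 fitted values lay below 0. None of the falls reached a log2 change of 1, and the largest fitted one was -0.70. In single lines, 44 of the 50 members were lower with both drugs in every line, against 23.1% of all tested genes, and 0 were higher in every line, against 25.4%.

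The size of the difference varied with the line. JEKO1 had a median log2 ratio of -0.47 over the 50 members, JVM2 one of -0.20 and MAVER1 one of -0.54, beside 0.03, 0 and 0.0018 for all tested genes. JVM2 had the highest ratio of the 3 lines for 40 of the 50 members, and MAVER1 the lowest for 29. Reads of the 51 members made up 0.726%, 0.716% and 0.834% of the JEKO1, JVM2 and MAVER1 control libraries, and 0.568%, 0.641% and 0.584% with both drugs. Without JEKO1 or without MAVER1 0 members were called, with 37 and 22 genes called in all, while without JVM2 39 members and 6103 genes (33.9%) were called. The median log2 change of the members was -0.37 without JEKO1, -0.34 without MAVER1 and -0.54 without JVM2. With the cell line left out of the model 0 members and 0 genes were called, and with only the 6 libraries of the comparison 0 members and 5 genes were called, with medians of -0.42 and -0.44.

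**Figure D1:**
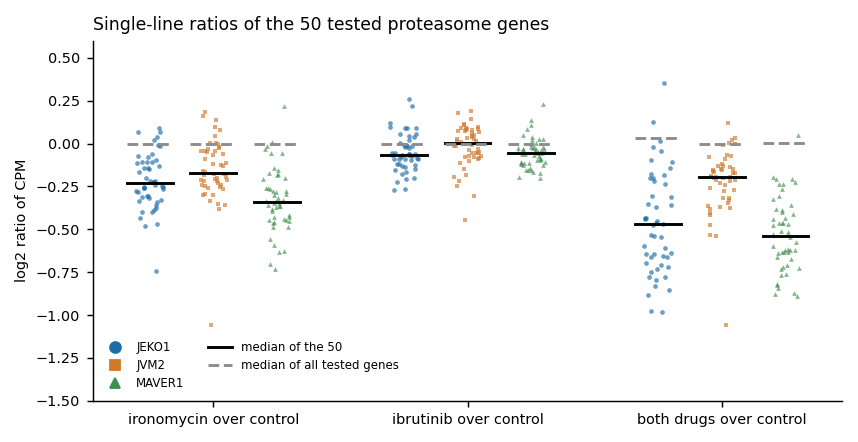
Log2 ratio of CPM of each of the 50 tested proteasome genes within a cell line (vertical axis) for ironomycin, ibrutinib and both drugs over control; each point is 1 gene in JEKO1 (circles), JVM2 (squares) or MAVER1 (triangles). Solid bars are medians of the 50 genes and dashed bars medians of all tested genes; with both drugs the solid bars lie at -0.47, -0.20 and -0.54, while with ibrutinib they lie at -0.07, 0.00 and -0.05.

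Every tested subunit of the 19S cap passed the main test, although PSMC6, PSMD4 and PSMD12 did not with scaling by library totals. All 6 ATPases (PSMC1 to PSMC6), the ring that unfolds the substrate, fell with both drugs, by 0.37 to 0.60 on the log2 scale. All 12 non-ATPase subunits fell as well, with a median log2 change of -0.50. PSMD3, a scaffold subunit of the lid, had the largest fall in this group, -0.66 ± 0.11 (SE of the fit, 3 lines, adjusted p = 0.00373). Under control, ironomycin, ibrutinib and combined treatment, PSMD3 measured 328, 249, 302 and 191 CPM in JEKO1. In the same order it measured 304.5, 241, 302 and 239.9 CPM in JVM2 and 555, 341, 495 and 302.5 CPM in MAVER1. Both treatments with ironomycin were lower than both without it in each line, although the ranges over lines overlapped, with MAVER1 the highest line in every treatment.

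PSMC3 had the largest fall of the 19S ATPases. Its level went from 397 to 232 CPM in JEKO1 and from 575 to 314 CPM in MAVER1 between control and both drugs, but only from 248 to 222 CPM in JVM2. The fitted fall was 0.60 ± 0.13 (SE of the fit, 3 lines, adjusted p = 0.00943). PSMD14, the deubiquitinase of the lid, fell by 0.55 ± 0.08 with the smallest adjusted p of all members, 0.00334. JEKO1 had a log2 ratio of -0.66 for it, JVM2 of -0.38 and MAVER1 of -0.62. ADRM1, a ubiquitin receptor of the cap, fell by 0.51 ± 0.12 (adjusted p = 0.0108), and PSMD4, another ubiquitin receptor, by 0.33 ± 0.08 (adjusted p = 0.0128).

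**Figure D2:**
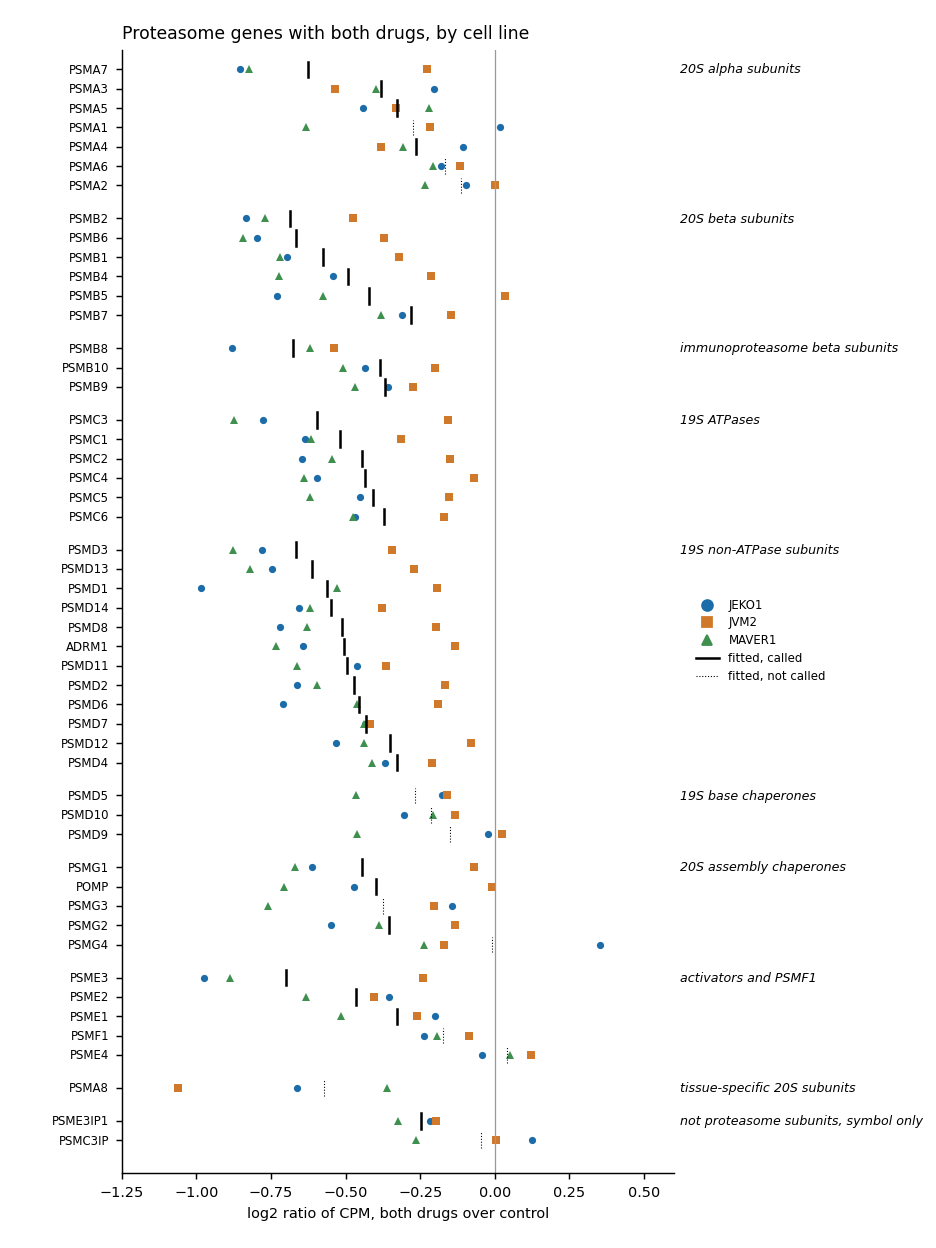
Log2 ratio of CPM, both drugs over control (horizontal axis), for each tested member, grouped by role; symbols are the 3 cell lines, and the vertical bar is the fitted log2 fold change, solid where the gene was called at an adjusted p under 0.05 and dotted where it was not. All 18 subunits of the 19S cap have solid bars left of 0, and the JVM2 square is the rightmost symbol for 40 of the 50 genes. For PSMA8 the JVM2 square is instead the leftmost symbol, and it rests on at most 0.0571 CPM.

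In the 20S core, all 6 constitutive beta subunits in the table fell with both drugs, with a median log2 change of -0.53, and 4 of the 7 alpha subunits fell. With scaling by library totals PSMB5, PSMB7, PSMA3, PSMA4 and PSMA5 were not called. PSMB2, a non-catalytic beta subunit, had the largest fall of the core, -0.69 ± 0.11 (adjusted p = 0.00346). Between control and combined treatment PSMB2 went from 167 to 94.0 CPM (JEKO1), 248 to 178 CPM (JVM2) and 274 to 161 CPM (MAVER1). The fall was present in every line and was again smallest in JVM2. Among alpha subunits PSMA7 fell most, by 0.63 ± 0.12 (adjusted p = 0.00604), with 331 CPM as control and 183 CPM under both drugs in JEKO1, 317 and 271 CPM in JVM2, and 408 and 231 CPM in MAVER1.

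The 3 alpha subunits that were not called were PSMA1, PSMA2 and PSMA6, and their counts are uncertain. Per kilobase of annotated exon, their control levels were 0.502 to 4.19 CPM per kb (median over lines), whereas the other 10 alpha and constitutive beta subunits lay between 24.8 and 189 CPM per kb. Subunits of the core are assembled in equal numbers as proteins, and equal RNA levels do not follow from that. In the GENCODE v29 annotation another gene on the same strand covers 24.7% of the exon bases of PSMA1, 14.6% of PSMA2 and 14.1% of PSMA6, and also 19.9% of PSMD9, a further low and uncalled member. The part of this overlap in their counts was not tested. PSMB10, with 34.8% covered, was not low, at 45.3 CPM per kb.

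PSMB6, which carries the caspase-like site, fell by 0.67 ± 0.10 (adjusted p = 0.00346). JEKO1 held 102 CPM of it as control and 58.8 under both drugs, JVM2 held 135 and 104.5, and MAVER1 held 89.7 and 50.0. PSMB5, the chymotrypsin-like subunit and the main target of bortezomib, fell by 0.42 ± 0.14 (adjusted p = 0.0400), and its lines moved in different directions. PSMB5 went from 99.2 to 59.7 CPM in JEKO1 and from 76.9 to 51.6 in MAVER1, but measured 64.8 CPM as control and 66.3 with both drugs in JVM2. PSMB7, the trypsin-like subunit, fell by 0.28 ± 0.09 (adjusted p = 0.0471), the smallest fall among the beta subunits.

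All 3 immunoproteasome subunits fell. PSMB8, the counterpart of PSMB5, fell by 0.68 ± 0.12 (adjusted p = 0.00473). Under control, ironomycin, ibrutinib and combined treatment it measured 106, 63.3, 110.0 and 57.4 CPM in JEKO1, against 349.7, 272.5, 295 and 241 in JVM2 and 190.1, 147, 181 and 124 in MAVER1. In every line both ironomycin-containing libraries were below both others. PSMB10 fell by 0.38 ± 0.09 (adjusted p = 0.0101) and PSMB9 by 0.37 ± 0.07 (adjusted p = 0.00650). PSMB9 measured 55.2, 45.9, 58.7 and 43.1 CPM in JEKO1, 226, 201, 228 and 186 in JVM2, and 125, 104, 123 and 90.2 in MAVER1 in that order of treatments. The 3 lines kept their order in every treatment, and the line ranges did not overlap for PSMB8 or PSMB9. Exons of PSMB8 and PSMB9 overlap on opposite strands in the GENCODE v29 annotation. With the strand setting unknown, reads there cannot be assigned with certainty.

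**Figure D3:**
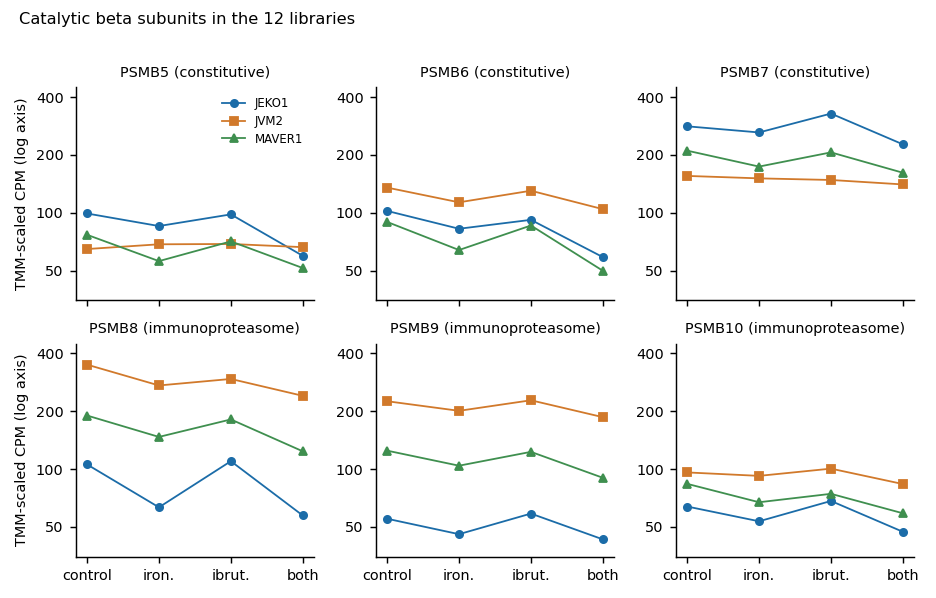
TMM-scaled CPM (log axis) of the 3 constitutive catalytic subunits (upper row) and their immunoproteasome counterparts (lower row) in each of the 12 libraries; the horizontal axis gives control, ironomycin (iron.), ibrutinib (ibrut.) and both drugs, and each line joins 1 cell line. PSMB8 and PSMB9 run highest in JVM2 and lowest in JEKO1 throughout, whereas PSMB7 runs highest in JEKO1.

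Ratios of immunoproteasome to constitutive catalytic subunits were lowest in JEKO1. Compared per kilobase of exon, the PSMB8 to PSMB5 ratio of levels was 0.437 to 0.660 over the 4 JEKO1 libraries, 2.14 to 3.18 over JVM2 and 1.41 to 1.55 over MAVER1. The PSMB9 to PSMB6 ratio was 0.254 to 0.346 in JEKO1, 0.786 to 0.840 in JVM2 and 0.656 to 0.851 in MAVER1. For PSMB10 to PSMB7 the ranges were 0.197 to 0.219, 0.574 to 0.655 and 0.348 to 0.384. The JEKO1 range did not overlap those of the other lines for any of the 3 pairs. With both drugs the log2 ratio of PSMB9 to PSMB6 was higher than in control by 0.44 in JEKO1, 0.10 in JVM2 and 0.37 in MAVER1, while that of PSMB8 to PSMB5 differed by -0.15, -0.57 and -0.045 (single libraries, no test).

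Of the activators and the inhibitor, 3 of 5 fell with both drugs. PSME3, which forms the nuclear PA28-gamma ring, had the largest fall of all members, -0.70 ± 0.12 (adjusted p = 0.00442). PSME3 stood at 248 CPM as control and 126 under both drugs in JEKO1, at 283 and 239 CPM in JVM2, and at 355 and 192 CPM in MAVER1. PSME1 and PSME2, which build the interferon-inducible PA28 ring that docks on the immunoproteasome, fell by 0.33 ± 0.08 (adjusted p = 0.0150) and 0.46 ± 0.11 (adjusted p = 0.0103). PSME2 measured 140, 127, 117 and 109.8 CPM in JEKO1 across control, ironomycin, ibrutinib and both drugs, 429.6, 337, 438 and 325 in JVM2, and 416, 309, 391 and 268 in MAVER1. All 4 JEKO1 libraries lay below every library of the other lines.

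PSME4, the PA200 activator that docks on the same barrel end as the cap, was the 1 member with a fitted value above 0, 0.04 ± 0.07 (adjusted p = 0.695). PSME4 measured 194, 192, 186 and 188 CPM in JEKO1, 127, 136, 140.5 and 138 in JVM2, and 160, 159, 161 and 166 in MAVER1. PSMF1, the inhibitor PI31, was at -0.17 ± 0.07 (adjusted p = 0.0914), which did not pass the test with edgeR and did with DESeq2 (adjusted p = 0.00187).

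Assembly factors were mixed in the main test. POMP, which helps join the rings of the core, fell by 0.40 ± 0.12 (adjusted p = 0.0276), PSMG1 by 0.44 ± 0.11 (adjusted p = 0.0165) and PSMG2 by 0.35 ± 0.10 (adjusted p = 0.0248). PSMG1 and PSMG2 form the chaperone pair on which the alpha ring is built. POMP measured 68.2 CPM as control and 49.1 under combined treatment in JEKO1, 80.1 and 79.6 in JVM2, and 97.1 and 59.5 in MAVER1. PSMG3 and PSMG4, the second such pair, were at -0.37 ± 0.13 (adjusted p = 0.0535) and -0.01 ± 0.12 (adjusted p = 0.967). PSMG4 measured 21.1 CPM as control and 27.0 under both drugs in JEKO1, 31.2 and 27.7 in JVM2, and 24.3 and 20.6 in MAVER1, so its lines moved in different directions. The chaperones of the 19S base, PSMD5, PSMD9 and PSMD10, were not called, with log2 changes of -0.27, -0.15 and -0.21 and adjusted p of 0.0576, 0.480 and 0.0520. PSMG3, PSMD5 and PSMD10 were called lower with RLE size factors (another scaling) and with DESeq2, so their place depends on the scaling and tool.

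With ironomycin alone edgeR called 0 members (0.584% of all genes were called). At an unadjusted p under 0.05, 29 of the 50 members passed, all with lower values, beside 22.5% of all tested genes, and DESeq2 called 24 members among 2308 genes (12.4%). The median log2 change was -0.23 over the members and 0.03 over all tested genes, and 38 of the 50 were lower in every line, against 20.8% of all tested genes, while 0 were higher in every line, against 21.2%. The largest fitted values were PSMB8 at -0.48 ± 0.12 (adjusted p = 0.0771), PSMD3 at -0.48 ± 0.11 (adjusted p = 0.0645) and ADRM1 at -0.45 ± 0.12 (adjusted p = 0.0803). At the other end stood PSME4 at 0.02, PSMD10 at 0.02 and PSMG4 at -0.01. Without JVM2, 15 members and 1636 genes were called.

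For ibrutinib alone, edgeR and DESeq2 each called 0 of the 50 (0% of all genes by edgeR, 27 genes by DESeq2), and 0 members passed at an unadjusted p under 0.05, beside 3.64% of all tested genes. The median log2 change was -0.04, and all fitted values lay between -0.23 (PSMA8) and 0.11 (PSMC3IP). After PSMA8 the lowest were PSMB2 at -0.15 ± 0.10 and PSMD14 at -0.14 ± 0.08, and after PSMC3IP the highest were PSMA6 at 0.07 and PSMG2 at 0.06 (adjusted p = 1 for all).

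Set against ibrutinib alone, both drugs gave 35 members that fell and 0 that rose, where 11.5% of all genes fell and 23.3% were called. PSME3 (-0.60 ± 0.12, adjusted p = 0.00932), PSMB8 (-0.60 ± 0.12, adjusted p = 0.00926) and PSMC3 (-0.59 ± 0.13, adjusted p = 0.0122) had the largest falls. The highest values were PSMG4 at 0.10 and PSME4 at 0.01, neither called, and the libraries with both drugs are those of the comparison with control. Set against ironomycin alone, edgeR called 0 members (0% of all genes), 13 passed at an unadjusted p under 0.05, all lower, beside 10.5% of all tested genes, and DESeq2 called 4 among 166 genes (0.889%). The median log2 change there was -0.18, with PSMA8 at -0.41 ± 0.26, PSMB2 at -0.37 ± 0.11 and PSMG1 at -0.32 ± 0.11 the lowest, and PSMC3IP and PSME4 the highest at 0.02 each. In single lines 35 of the 50 were lower in every line, against 19.8% of all tested genes.

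Whether both drugs went beyond the sum of each alone was tested as an interaction on the log2 scale. For 49 of the 50 members the departure lay below 0, with a median of -0.13 beside 0.0089 over all tested genes. All members were read in the same libraries, so their signs are not separate observations. By edgeR or DESeq2 0 members were called, and 0 passed at an unadjusted p under 0.05, beside 1.97% of all tested genes. The lowest departures were PSMG1 at -0.25 ± 0.16, PSMA7 at -0.25 ± 0.17 and PSMG2 at -0.23 ± 0.14 (adjusted p = 0.9999 for each), and the highest was PSMG4 at 0.11 ± 0.17.

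The effect of ironomycin differed between lines for 3 of the 50 members, beside 9.38% of all tested genes. For each line this test pools ironomycin over control with both drugs over ibrutinib. PSMG3 had the smallest adjusted p (0.0188). It measured 51.5 and 54.9 CPM as control and with ironomycin in JEKO1, 56.8 and 56.8 in JVM2, and 69.9 and 46.3 in MAVER1. Without ibrutinib MAVER1 alone was therefore lower. For both drugs over ibrutinib PSMG3 was lower in every line, with log2 ratios of -0.13 (JEKO1), -0.15 (JVM2) and -0.56 (MAVER1). PSMD13, a lid subunit (adjusted p = 0.0350), had log2 ratios for ironomycin over control of -0.39 (JEKO1), -0.12 (JVM2) and -0.63 (MAVER1). PSMB8 (adjusted p = 0.0461) had -0.74, -0.36 and -0.37, with JEKO1 the lowest. For both drugs over ibrutinib, in the same order of lines, PSMD13 had -0.61, -0.16 and -0.67 and PSMB8 had -0.94, -0.29 and -0.55.

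Levels differed between lines for 44 of the 50 members, which is no more than the 90.0% of all tested genes that did. The 4 libraries of a line are the 4 treatments of that line, not replicates of it. The p-values and SEs of the line differences therefore measure only the spread left across treatments. Between JVM2 and JEKO1 40 were called, 26 higher and 14 lower in JVM2 (78.3% of all genes, 38.6% higher and 39.8% lower). Between MAVER1 and JEKO1 33 were called, 23 of them higher in MAVER1 (66.4%, 31.8% higher), and between MAVER1 and JVM2 35 were called, 17 of them higher in MAVER1 (71.2%, 34.7% higher). PSMB9 was higher than in JEKO1 by 2.06 ± 0.07 on the log2 scale in JVM2 (adjusted p = 3.57e-10) and by 1.12 ± 0.06 in MAVER1 (adjusted p = 6.69e-08). PSMB8 was higher by 1.83 ± 0.11 and 0.96 ± 0.11, and PSME2 by 1.62 ± 0.09 and 1.47 ± 0.09. JVM2 and MAVER1 did not differ in PSME2 beyond their spread (-0.15 ± 0.09, adjusted p = 0.155). TAP1, the peptide transporter whose gene lies beside PSMB9 in the MHC region, had 49.9 to 59.1 CPM in the JEKO1 libraries, 362 to 417 CPM in those of JVM2 and 232 to 372 CPM in those of MAVER1.

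The 3 constitutive catalytic subunits did not share an order of lines. PSMB6 was highest in JVM2, by a log2 difference of 0.55 ± 0.09 from JEKO1 (adjusted p = 0.000150), and lower in MAVER1 than in JEKO1 (-0.22 ± 0.09, adjusted p = 0.0452). PSMB7 was lower than in JEKO1 by a log2 difference of -0.87 ± 0.08 in JVM2 and -0.54 ± 0.08 in MAVER1 (adjusted p = 1.96e-06 and 0.000126). PSMB5 was also lower in both, at -0.32 ± 0.12 and -0.42 ± 0.12 (adjusted p = 0.0263 and 0.00830), and JVM2 and MAVER1 did not differ beyond their spread (adjusted p = 0.474). PSMA3 also differed widely, at 41.9 CPM in the JEKO1 control and 125.8 CPM in the JVM2 control. PSMA1 was lower in JVM2 than in JEKO1 (-1.27 ± 0.13), but its counts are uncertain, as described above. PSMD14 and PSMD6 were lower in MAVER1 than in JVM2 (-0.91 ± 0.07 and -0.89 ± 0.09). PSMA8, the testis-type alpha subunit, was present in JEKO1 at 3.999 to 6.36 CPM and in MAVER1 at 3.91 to 5.85, while JVM2 had 0 to 0.0571 CPM.

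Around the proteasome, the gene of its transcriptional activator rose. Under control, ironomycin, ibrutinib and combined treatment NFE2L1 measured 168.5, 334, 184 and 457 CPM in JEKO1, 323, 419, 289 and 467 in JVM2, and 221, 337.5, 218 and 402 in MAVER1. In each line both ironomycin-containing libraries lay above both others. NFE2L1 rose by 0.95 ± 0.14 with both drugs (adjusted p = 0.00337) and was at 0.65 ± 0.14 with ironomycin (adjusted p = 0.0620, and 0.000568 with DESeq2). Of the 7 genes listed for the NFE2L1 route, 2 rose and 1 fell with both drugs, beside 14.2% and 14.0% of all tested genes. SEL1L, a scaffold of the endoplasmic reticulum ubiquitin ligase, rose by 1.45 ± 0.28 (adjusted p = 0.00598), and VCP, the ATPase that extracts NFE2L1 from the membrane, fell by 0.41 ± 0.09 (adjusted p = 0.00825). NFE2L2, DDI2, NGLY1 and SYVN1 were not called. The ironomycin effect on NFE2L1 differed between lines (adjusted p = 0.0369), as did those on SEL1L (0.000796) and SYVN1 (0.00787).

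**Figure D4:**
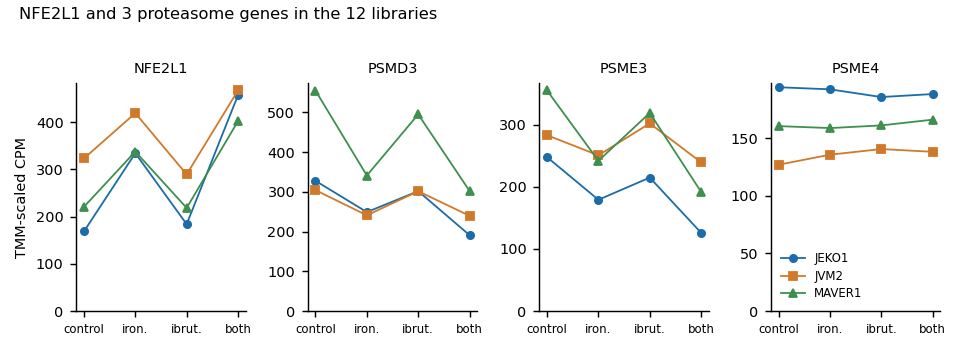
TMM-scaled CPM (linear axis from 0) of NFE2L1, PSMD3, PSME3 and PSME4 in the 12 libraries; the horizontal axis gives control, ironomycin (iron.), ibrutinib (ibrut.) and both drugs, and each line joins 1 cell line. NFE2L1 is higher and PSMD3 and PSME3 lower in the ironomycin-containing libraries of every line, while PSME4 stays between 127 and 194 CPM.

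Of 14 listed proteasome-associated proteins, 6 fell and 1 rose with both drugs, with a median log2 change of -0.13. Among all tested genes 14.0% fell and 14.2% rose. Those that fell were SEM1, a small lid subunit, the deubiquitinases UCHL5 and USP14, the ligase UBE3C, and the shuttle factors RAD23B and UBQLN1, at -0.30 to -0.43. ECPAS, a protein that holds cap and core together, rose by 0.36 ± 0.11 (adjusted p = 0.0356). Of 5 genes for ubiquitin and its activating enzymes, UBA1 fell (-0.56 ± 0.09, adjusted p = 0.00397) and 0 rose.

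Of 9 listed genes of antigen presentation and interferon response, 2 rose with both drugs and 0 fell, beside 14.2% and 14.0% of all tested genes. The trimming peptidases ERAP1 and ERAP2 rose by 0.43 ± 0.13 (adjusted p = 0.0298) and 0.42 ± 0.10 (adjusted p = 0.0146). TAP1 was at -0.20 ± 0.16 (adjusted p = 0.357) and IRF1, an interferon-responsive transcription factor, at 0.57 ± 0.20 (adjusted p = 0.0540, and 0.0220 with DESeq2). In JEKO1, JVM2 and MAVER1 the log2 ratios were 0.16, -0.08 and -0.68 for TAP1 and 1.30, -0.07 and 0.45 for IRF1. The ironomycin effect differed between lines for 4 of the 9 listed genes, beside 9.38% of all tested genes. PSMB8, PSMB9, PSMB10, PSME1 and PSME2 fell with both drugs. Of the 4 B-cell markers CD79A also fell with both drugs, by 0.53 ± 0.13 (adjusted p = 0.0151), and the summed markers ran from 1313 to 1810 CPM in control and from 1165 to 1372 with both drugs. Their part in the changes of the members was not tested.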

How the data were processed

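RNA-seq was analysed in 12 libraries, 1 for each of 3 MCL cell lines and 4 treatments. The values are the raw counts that the authors deposited, 1 per Ensembl gene ID and library, not normalized. Their processing notes name STAR, DESeq2 and GRCh37, and the counting tool, annotation release and strand setting are not given in the sources used here, so genes that overlap cannot be told apart by strand. No column was left unused (0). Names matched for 52181 of 63677 IDs. The rule met 102 symbols, of which 51 pseudogenes or non-coding genes were dropped. The members and gene lists were chosen with earlier results of these data known, and 3 listed genes that are no members are not reported here.

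Counts were filtered with filterByExpr (18674 genes), scaled by TMM (factors 0.914 to 1.19) and tested in edgeR 4.0.16 (R 4.3.3) by the quasi-likelihood test with treatment and cell line as terms over all 12 libraries and Benjamini-Hochberg adjustment over all tested genes. A gene was called at an adjusted p under 0.05. Fitted values are log2 fold changes, and single-line log2 ratios use a prior count of 2. The value after ± is a standard error (SE) from the edgeR fit, the absolute log2 change over the square root of the F statistic. It rests on the moderated residual spread over all 12 libraries and is not the SE of the 3 single-line ratios. Line-by-ironomycin terms tested the effect by line. The block is the same cell line under every treatment: deviations from treatment means correlated at 0.926 to 0.976 in the 18 same-line pairs and at -0.705 to -0.127 in the 48 others. The negative values follow at least in part from the centring, since the deviations of 3 lines from their treatment mean sum to 0. Levels per kilobase use GENCODE v29 exon lengths. The genes named were the catalytic pairs, activators and assembly factors, the 3 largest falls and rises per comparison, every called member where at most 10 were called in a direction, and listed genes where called. PSMA2, PSMA3, PSMD4 and PSMD5, and the promoter stretches printed, were chosen outside that rule after the values were seen. Alternatives were DESeq2 1.42.0, other scalings, no filter, no block, only the 6 libraries compared, each line left out, and a fold minimum. Scripts were tested on simulated data. Labels do not say whether the libraries of a line came from separate cultures, so p-values measure only the spread between these libraries.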

Additional observations from a re-analysis of the deposited data

Results flagged for a closer look

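PSMG3, PSMD13 and PSMB8 had ironomycin effects that differed between the 3 cell lines, by the interaction test of edgeR with adjusted p of 0.0188, 0.0350 and 0.0461. PSMG3 was lower with ironomycin alone in MAVER1 (log2 ratio -0.59) and near its control level in JEKO1 (0.09) and JVM2 (0.00). For both drugs over ibrutinib, which the test also uses, it was lower in every line (-0.13 in JEKO1, -0.15 in JVM2 and -0.56 in MAVER1). In both of these comparisons PSMD13 was lower in all 3 lines, most in MAVER1 and least in JVM2, and PSMB8 was lowest in JEKO1. For both drugs over ibrutinib MAVER1 and JEKO1 were close for PSMD13 (-0.67 and -0.61). The lines received different doses, so line and dose cannot be told apart. With treatment groups of 3 libraries, no search for a library standing apart within a treatment was made.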

How the results depend on the processing

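With 3 lines, 1 line can end a call, and the values describe RNA, not protein or proteasome activity. With both drugs against control, 38 members were called. Leaving out 1 line gave 0 to 39 (0 without JEKO1 and 0 without MAVER1), beside 0.117% to 33.9% of all tested genes. Against ibrutinib it gave 0 to 35 (main count 35), beside 0.00559% to 28.9%. No replicate block gave 0 for both comparisons (0% of all genes). Only the 6 libraries compared gave 0 for both (0.0310% and 1.89% of all genes), and a fold minimum of 1 on the log2 scale gave 0 for both. For ironomycin against control the count of 0 became 24 with DESeq2, 2 with no filter and 0 to 15 without 1 line. For both drugs against ironomycin DESeq2 called 4. For the ironomycin effect by line the count of 3 became 8 with DESeq2 and 0 to 6 without 1 line. Medians of the members kept their sign in all settings run. Scaling by library totals moved the median of all genes with both drugs from 0.05 to 0.18. The median of the members moved from -0.41 to -0.29, so the members stayed 0.46 to 0.47 lower. With that scaling 26 members were called, beside 29.4% of all tested genes. That scaling also moved the share of all calls that were higher from 50.4% to 71.6%. It ended the calls of POMP, PSMA3, PSMA4, PSMA5, PSMB5, PSMB7, PSMC6, PSMD4, PSMD12, PSME1, PSME3IP1 and PSMG2. With no filter PSMA4, PSMB7 and PSME3IP1 lost theirs and PSMG3 was called, 36 members in all beside 13.5% of all tested genes. RLE size factors called 41 members (28.3% of all tested genes) and DESeq2 42 (33.7%). Each kept the 38 and added PSMD5, PSMD10 and PSMG3, and DESeq2 also PSMF1. Without JVM2 PSMA4 was not called, and PSMD10 and PSMF1 were.

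Values near 0 that changed sign, none of them called, were these. With library totals PSMG4 was at 0.056 with ironomycin and 0.12 with both drugs, and PSMC3IP at 0.079 with both drugs. With no filter PSMD10 was at -0.0016 with ironomycin. Leaving out 1 line, the ironomycin values ran from -0.55 to 0.095 for PSMA8, -0.021 to 0.038 for PSMD10, -0.30 to 0.045 for PSMG3, -0.044 to 0.011 for PSMG4, -0.039 to 0.038 for PSME4, -0.13 to 0.012 for PSMC3IP and -0.33 to 0.038 for TAP1. With both drugs they ran from -0.21 to 0.10 for PSMG4, -0.032 to 0.084 for PSME4, -0.13 to 0.062 for PSMC3IP and -0.39 to 0.044 for TAP1. The cause of these shifts was not tested.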

Other observations

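Among the 51 genes with matching symbols that were left out as pseudogenes or non-coding, 7 were abundant enough to be tested. PSMA3-AS1, a non-coding RNA antisense to PSMA3, rose with both drugs by 0.65 ± 0.13 on the log2 scale (edgeR, adjusted p = 0.00673), while PSMA3 fell by 0.38 ± 0.09 (adjusted p = 0.0132). Under control, ironomycin, ibrutinib and combined treatment PSMA3-AS1 measured 10.7, 13.3, 11.9 and 21.1 CPM in JEKO1, 13.8, 18.3, 15.8 and 19.7 in JVM2, and 8.73, 9.99, 9.72 and 11.7 in MAVER1. In the GENCODE v29 annotation no gene on the opposite strand shares exon bases with PSMA3, but the annotation used for the counts is not known. PSMC1P1 and PSME2P1, copies related in sequence to PSMC1 and PSME2, fell by 0.39 ± 0.11 (adjusted p = 0.0276) and 0.60 ± 0.20 (adjusted p = 0.0478), and reads shared with their parent genes cannot be told apart here.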
